A study of Homo sapiens with 6 samples.

Results

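The genes described here are 37 genes of the endoplasmic reticulum (ER): its chaperones, the machinery that removes misfolded proteins (ER-associated degradation, ERAD), the protein translocon and the sensors of the unfolded protein response. They were chosen by gene symbol from the 58735 genes of the deposited count table, and all 37 symbols were found there. Expression was compared in Het1A, a line of human oesophageal epithelial cells immortalised with a viral T antigen. The 3 bile acid cultures received medium at pH 4 with 100 µM mixed bile acids (deoxycholic acid, its glycine conjugate, the glycine conjugate of chenodeoxycholic acid, and the glycine and taurine conjugates of cholic acid), for 10 min on each of 5 days. The 3 control cultures received 0.1% DMSO, the vehicle. The labels do not say whether the control medium was acidified, so effects of the acid and of the bile acids cannot be told apart. All cultures had been starved in 1% serum for 48 h beforehand, stayed in it throughout, and were harvested 24 h after the last exposure. All 6 cultures come from a single line, numbered as biological replicates, and nothing says how they were separated.

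Proteins that enter the ER fold there with the help of chaperones, and glycoproteins pass a quality check by lectin chaperones. When unfolded proteins accumulate, 3 sensors in the ER membrane respond: IRE1 (gene ERN1), which splices the mRNA of the transcription factor XBP1, PERK (gene EIF2AK3), which slows translation, and ATF6, which is cut to release a transcription factor. XBP1 and ATF6 raise chaperone and ERAD genes through short promoter sequences, the ER stress response elements. The spliced form of XBP1 cannot be seen in counts per gene, and neither can the cleavage of ATF6.

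These response elements were looked for in the RefSeq promoter windows (GRCh38.p14), which run from 250 bases before to 50 bases after each gene start and hold 35 of the 37 genes. On either strand, the element ERSE (letters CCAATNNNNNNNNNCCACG) was present in 7 of the 35 windows (20%) and in 22 of 27305 windows of all genes (0.0806%). The shorter ERSE-II (ATTGGNCCACG) was present in 3 of the 35 (8.6%) and in 15 of all windows (0.0549%). Of the 37 windows of all genes with either element, 10 (27.0%) belonged to the ER genes: HSPA5, HSP90B1, HYOU1, SDF2L1, CALR, CANX, CRELD2, HERPUD1, SERP1 and XBP1. The element UPRE (TGACGTGG) was present in 2 of the 35 windows, HYOU1 and TXNDC11 (5.7%), and in 0.795% of all windows. The bare CCAAT box, which is part of ERSE and, on its other strand, of ERSE-II, was present in 28 of the 35 windows (80.0%) and in 35.7% of all windows. These elements are known from chaperone and ERAD genes, so their larger share among such genes is no result of these data. A match is a description of the letters and not a measured binding site. The 4 windows below were chosen after the values were seen. HSPA5 encodes the central ER chaperone, and SDF2L1, CRELD2 and HERPUD1 had the highest log2 fold changes when control library 2 was left out. Capitals mark ERSE in HSPA5 and CRELD2 and ERSE-II in SDF2L1 and HERPUD1, and the element lies on the reverse strand in CRELD2 and SDF2L1.
HSPA5, chr9:125241294-125241593, minus strand: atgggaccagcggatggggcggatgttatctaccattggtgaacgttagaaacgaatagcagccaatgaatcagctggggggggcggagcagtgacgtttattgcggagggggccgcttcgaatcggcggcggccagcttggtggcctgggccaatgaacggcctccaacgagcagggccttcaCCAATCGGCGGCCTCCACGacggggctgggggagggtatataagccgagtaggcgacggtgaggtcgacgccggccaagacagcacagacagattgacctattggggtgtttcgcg
SDF2L1, chr22:21642052-21642351, plus strand: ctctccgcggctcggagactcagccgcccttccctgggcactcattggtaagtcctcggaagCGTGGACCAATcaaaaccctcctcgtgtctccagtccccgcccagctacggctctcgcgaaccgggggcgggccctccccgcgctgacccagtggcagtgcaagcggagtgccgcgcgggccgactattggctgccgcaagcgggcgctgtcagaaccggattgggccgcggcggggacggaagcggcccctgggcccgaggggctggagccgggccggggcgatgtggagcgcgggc
CRELD2, chr22:49918384-49918683, plus strand: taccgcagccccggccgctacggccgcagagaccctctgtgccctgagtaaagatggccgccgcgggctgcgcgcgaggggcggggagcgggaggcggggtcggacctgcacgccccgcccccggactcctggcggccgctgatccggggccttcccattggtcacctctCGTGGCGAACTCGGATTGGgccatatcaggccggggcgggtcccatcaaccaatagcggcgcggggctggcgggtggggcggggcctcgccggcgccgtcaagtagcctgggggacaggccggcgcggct
HERPUD1, chr16:56931892-56932191, plus strand: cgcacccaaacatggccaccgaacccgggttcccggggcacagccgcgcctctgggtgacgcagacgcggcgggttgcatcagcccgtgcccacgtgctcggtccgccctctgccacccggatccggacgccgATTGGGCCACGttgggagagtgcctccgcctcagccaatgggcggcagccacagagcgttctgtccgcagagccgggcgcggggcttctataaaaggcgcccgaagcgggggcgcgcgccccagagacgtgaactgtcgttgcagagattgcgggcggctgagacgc
Counted from the gene start in RefSeq, ERSE starts at -66 in HSPA5 and at -80 in CRELD2, while ERSE-II starts at -188 in SDF2L1 and at -117 in HERPUD1.

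The bile acid libraries held 27008714 to 28497721 counts and the control libraries 21006677 to 26218597. Among the 6 libraries control 2 was the exception, at 145 on a first principal component that held 73.1% of the variance, where the others lay between -44 and -6.9. It had 19101 detected genes, against 24174 to 25337 in the others. Its TMM scaling factor was 0.851, against 1.01 to 1.07 in the others, which raised its CPM. Results are therefore given with and without control 2. The epithelial markers KRT8, KRT18, KRT19 and EPCAM were expressed in every library, while the basal squamous markers KRT5, KRT14 and TP63 had 0 to 12 counts per library. Summed over 8 epithelial markers, the level was 205.9, 182 and 195 FPKM in the bile acid libraries and 160.0, 335 and 133 FPKM in the control libraries. The 6 mesenchymal markers summed to 50.5, 44.1 and 56.3 FPKM in the bile acid libraries and to 44.6, 35.8 and 25.6 FPKM in the control libraries. Of the leukocyte markers PTPRC and CD3E were at 0 in every library, as was the endothelial marker CDH5. The part of these markers in the results was not tested. In bulk RNA, fewer cells that express a gene and less of its RNA per cell cannot be told apart.

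No ER gene passed the test between the groups. In the quasi-likelihood test of edgeR, 0 of the 36 tested genes passed an adjusted p of 0.05, and the same share, 0%, of all 17743 tested genes passed in either direction. The smallest adjusted p of an ER gene was 0.911. At an unadjusted p under 0.05 the test found 0 of the 36, against 1.93% of all genes higher and 1.39% lower. DESeq2 called 0 of the 36 as well, where it called 0.107% of all genes higher and 0% lower. The log2 fold changes of bile acid over control lay between -0.61 (SEC61G) and 0.60 (TXNDC5), with a median of 0.08, and over all genes the median was -0.01. A positive log2 fold change was found for 21 of the 36 (58.3%) and for 48.8% of all genes.
Leaving out control 2 gave another sign for 13 of the 36 log2 fold changes, and again no call. The median over the 36 ER genes became 0.15, against 0.00 over all genes, and 28 of the 36 were positive (77.8%), against 50.8% of all genes. In edgeR 0 ER genes passed the adjusted threshold, with 0.00547% of all genes called higher and 0% lower, and the smallest adjusted p of an ER gene was 0.427. DESeq2 also called 0 ER genes, beside 0.886% of genes higher and 0.0929% lower, with a smallest adjusted p of 0.177. At an unadjusted p under 0.05 edgeR had 6 of the 36 higher (16.7%) and 1 lower (2.78%), against 5.02% and 2.96% of all genes. The 6 were SDF2L1, CRELD2, HERPUD1, CALR, MANF and SEC61G, and the 1 was ERN1. In each of the other 5 libraries left out in turn, 0 of the 36 had an unadjusted p under 0.05 in edgeR, against 1.26%, 3.26% and 1.18% of all genes without bile acid 1, 2 and 3, and 5.11% and 4.28% without controls 1 and 3.

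**Figure D1:**
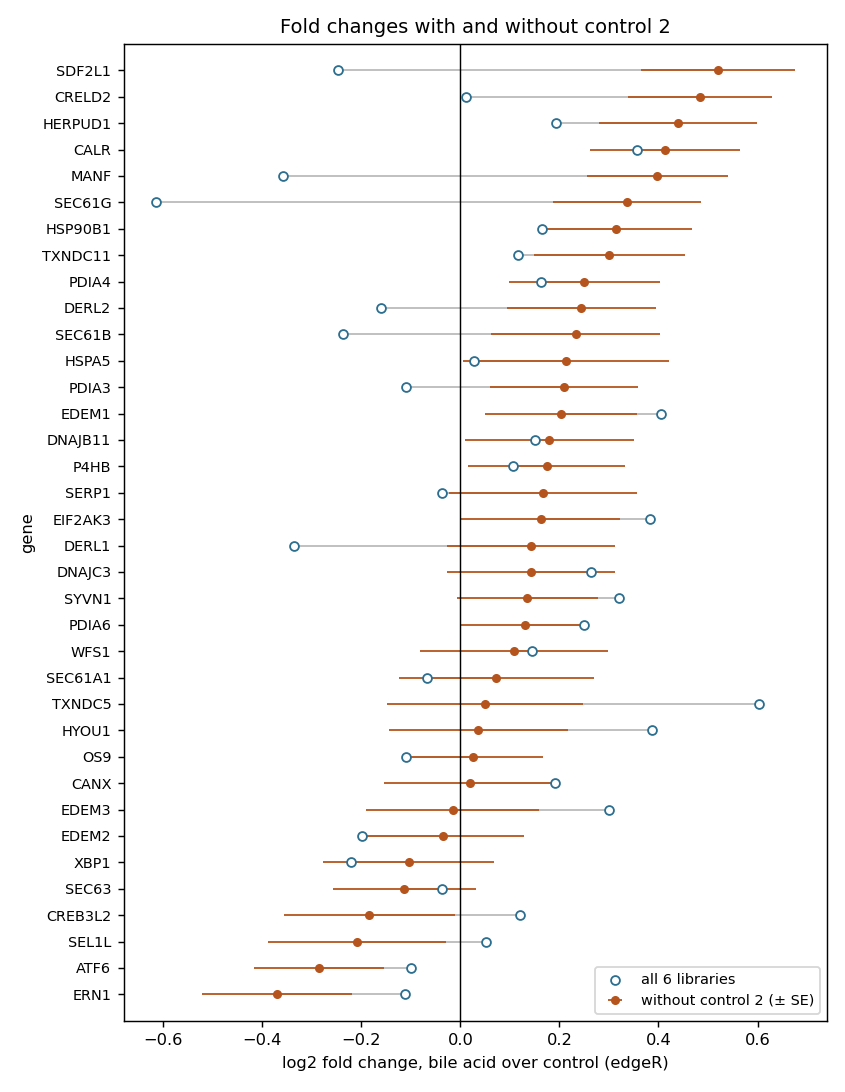
Log2 fold change of bile acid over control in edgeR (x axis) for the 36 tested ER genes (rows), with open circles for all 6 libraries and filled circles with SE bars for the fit without control 2. Without control 2, 28 of the 36 points lie right of 0, from SDF2L1 at 0.52 down to ERN1 at -0.37, and the grey lines show how far each gene moved.

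The HSP70 and HSP90 machine of the ER had 6 tested genes, 5 of them positive with all libraries and all 6 positive without control 2, with medians of 0.16 and 0.20. HSPA5 encodes BiP, the ER HSP70 and a main target of the unfolded protein response. HSPA5 had 2232, 1971 and 1353 CPM in the bile acid libraries, against 1478, 2234 and 1741 CPM in the control libraries. The highest values, bile acid 1 and control 2, were nearly equal and the lowest of all was bile acid 3, so the groups overlapped widely. The log2 fold change of HSPA5 was 0.03 (SE 0.27), with a 95% interval of -0.61 to 0.67, and it was 0.21 (SE 0.21) without control 2. HSP90B1, the HSP90 of the ER, had 1228, 1119 and 1077 CPM in the bile acid libraries and 1009, 1206 and 839 CPM in the control libraries. Its bile acid values all lay above controls 1 and 3 and were overlapped by control 2, with a log2 fold change of 0.16 (SE 0.21), or 0.32 (SE 0.15) without that library. HYOU1, a nucleotide exchange factor of BiP, had 702, 517 and 468 CPM in the bile acid libraries and 551, 186 and 553 CPM in the control libraries. Here control 2 was the lowest of the 6, and the log2 fold change of 0.39 (SE 0.42) became 0.04 (SE 0.18) without it.
SDF2L1, which works with the ER J proteins, showed the opposite deviation of control 2. It had 93.1, 82.2 and 68.1 CPM in the bile acid libraries and 56.3, 175 and 57.6 CPM in the control libraries. Every bile acid value exceeded controls 1 and 3 and none reached control 2, so the log2 fold change was -0.25 (SE 0.45) with all libraries and 0.52 (SE 0.16) without control 2 (edgeR, adjusted p = 0.427). DNAJB11 and DNAJC3, J proteins that bring substrates to BiP, had log2 fold changes of 0.15 and 0.26, with overlapping groups. DNAJB9, a J protein and a strong target of XBP1 in other cells, was listed at 0 counts in all 6 libraries and could not be tested. By sampling alone, a count of 0 allows up to 3 counts, or 0.104 to 0.168 CPM per library. This is no limit on expression if reads of DNAJB9 were lost in mapping or counting, which was not tested.

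**Figure D2:**
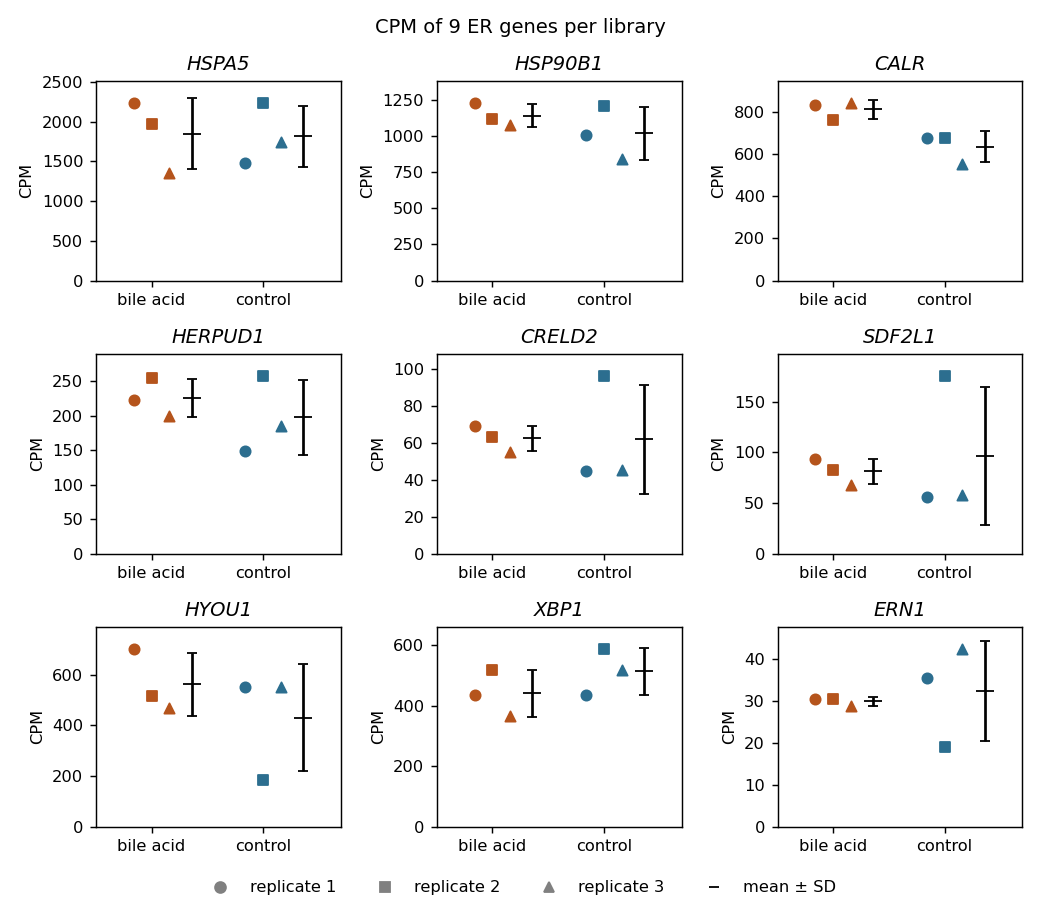
TMM-scaled CPM (y axes, from 0) of 9 ER genes in the 3 bile acid and 3 control libraries, with a marker shape per replicate number and a bar for mean ± SD. The control square (control 2) is the highest control for HSPA5, HSP90B1, HERPUD1, CRELD2, SDF2L1 and XBP1 and the lowest for HYOU1 and ERN1, and only CALR has groups that do not overlap.

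The lectin chaperones calreticulin and calnexin hold newly made glycoproteins. CALR (calreticulin, chromosome 19 from 12938578 to 12944489 in GRCh38) had 836, 764 and 843 CPM in the bile acid libraries and 680.2, 676 and 552 CPM in the control libraries. The groups did not overlap and control 2 lay next to control 1. The mean was 814 ± 43.8 CPM in the bile acid group and 636 ± 72.6 CPM in the control group (SD, n = 3 each). Its log2 fold change was 0.36 (SE 0.19, 95% interval -0.09 to 0.80), the smallest unadjusted p of the ER genes in edgeR (0.102, adjusted p = 0.911). The unadjusted p of CALR depended on the method. It was 0.0482 in DESeq2 (adjusted p = 0.945) and 0.0390 in limma with the trend with gene length removed (adjusted p = 0.838). Without control 2 the log2 fold change of CALR was 0.41 (SE 0.15; edgeR, unadjusted p = 0.0204, adjusted p = 0.545). CANX (calnexin) had 2311, 1896 and 1693 CPM in the bile acid libraries and 2116, 1261 and 1792 CPM in the control libraries, groups that overlapped, with a log2 fold change of 0.19 (SE 0.26) or 0.02 (SE 0.17) without control 2.

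Groups without overlap were found for 3 ER genes, CALR, PDIA6 and EDEM1, all higher in bile acid (8.33% of 36), against 5.29% of all genes higher and 4.89% lower. The groups of 2 genes were apart on FPKM, CALR and PDIA6, and of 2 with recovered reads or with CPM scaled by library size alone, CALR and HSP90B1, so CALR was the 1 gene apart in each of these settings. Without control 2 the groups of 11 were apart and higher (30.6%) and of 2 apart and lower (5.56%), against 12% and 12.9% of all genes. The 11 were HSP90B1, SDF2L1, CALR, PDIA4, PDIA6, CRELD2, MANF, HERPUD1, EDEM1, DERL2 and SEC61G, and the 2 were ATF6 and ERN1.

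The protein disulfide isomerases form and rearrange disulfide bonds. Of 6 tested, 5 were positive with all libraries and 6 without control 2, with medians of 0.14 and 0.19. PDIA6 had 274, 262 and 255 CPM in the bile acid libraries and 244, 180.4 and 241 CPM in the control libraries, with a log2 fold change of 0.25 (SE 0.19), or 0.13 (SE 0.13) without control 2. ATP6V1C2 overlaps 25.2% of its exonic length, so its counts are uncertain. P4HB, PDIA4 and TXNDC11 had log2 fold changes of 0.11, 0.16 and 0.12, and PDIA3, which works with the lectin chaperones, had -0.11. TXNDC5 had the highest log2 fold change of all the ER genes and the widest interval. It had 21.8, 15.2 and 21.7 CPM in the bile acid libraries and 18.8, 0.392 and 19.3 CPM in the control libraries. Only control 2, with 7 counts, stood out, and the log2 fold change of 0.60 (SE 0.95, 95% interval -1.62 to 2.82) became 0.05 (SE 0.20) without it. The read-through gene BLOC1S5-TXNDC5 overlaps 60.6% of the exonic length of TXNDC5, so its counts are uncertain.

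Secreted proteins that are released under ER stress were represented by CRELD2 and MANF. CRELD2 had 68.9, 63.1 and 55.2 CPM in the bile acid libraries and 44.7, 96.0 and 45.2 CPM in the control libraries. As with SDF2L1, all bile acid values lay between the 2 low controls and control 2. Its log2 fold change was 0.01 (SE 0.32) with all libraries and 0.48 (SE 0.15) without control 2 (edgeR, unadjusted p = 0.00701, adjusted p = 0.427). MANF, a survival factor for cells under ER stress, had 152, 172 and 139 CPM in the bile acid libraries and 113, 358 and 123 CPM in the control libraries. Control 2 had more than all others, and the log2 fold change was -0.36 (SE 0.44) with it and 0.40 (SE 0.14) without it (edgeR, unadjusted p = 0.0182, adjusted p = 0.531).

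Of the 9 ERAD genes 5 were positive with all libraries and 6 without control 2, with medians of 0.05 and 0.13. HERPUD1, an ER membrane protein that gathers the ubiquitin ligase complex, had 222, 255 and 199 CPM in the bile acid libraries and 149, 257 and 186 CPM in the control libraries. Control 2 was the highest of all 6, and the other controls lay below every bile acid library. The log2 fold change of HERPUD1 was 0.19 (SE 0.24) with all libraries and 0.44 (SE 0.16) without control 2 (edgeR, unadjusted p = 0.0192, adjusted p = 0.541). EDEM1, which helps to extract mannose-trimmed glycoproteins, had 172, 131 and 134 CPM in the bile acid libraries and 129, 74.9 and 126 CPM in the control libraries. Its groups did not overlap, although bile acid 2 lay close to control 1, and the log2 fold change was 0.41 (SE 0.26), or 0.20 (SE 0.15) without control 2. DERL1, a subunit of the channel through which misfolded proteins leave the ER, had 132, 165 and 122 CPM in the bile acid libraries and 112, 274 and 143 CPM in the control libraries. The groups overlapped and the log2 fold change was -0.34 (SE 0.34), or 0.14 (SE 0.17) without control 2. The ubiquitin ligase SYVN1, of whose exonic length 10.1% is overlapped by other genes, and its partner SEL1L had log2 fold changes of 0.32 and 0.05 with all libraries and of 0.13 and -0.21 without control 2. EDEM2, EDEM3, DERL2 and OS9 lay between -0.20 and 0.30.

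The 5 translocon genes all had negative log2 fold changes with all libraries, with a median of -0.07. Without control 2 there were 4 positive and a median of 0.17. No difference from the other gene groups was tested. SEC61G, the small gamma subunit of the channel, had 149, 179 and 139 CPM in the bile acid libraries and 128, 467 and 119.9 CPM in the control libraries. It had the lowest log2 fold change of the ER genes, -0.61 (SE 0.52), and 0.34 (SE 0.15) without control 2 (edgeR, unadjusted p = 0.0459, adjusted p = 0.615). SEC61B, the beta subunit, had 92.8, 98.1 and 66.7 CPM in the bile acid libraries and 73.6, 157 and 73.5 CPM in the control libraries. Its groups overlapped with and without control 2, with log2 fold changes of -0.24 (SE 0.34) and 0.23 (SE 0.17). SEC61A1, the pore subunit, SEC63, which couples BiP to the channel, and SERP1, which is thought to protect membrane proteins under stress, lay between -0.07 and -0.04.

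The sensors and transcription factors had a median log2 fold change of -0.10 with all libraries and of -0.18 without control 2, where 1 of 5, EIF2AK3, was positive. XBP1 had 437, 519.9 and 365 CPM in the bile acid libraries and 434, 587 and 519.9 CPM in the control libraries, overlapping groups with a log2 fold change of -0.22 (SE 0.22), or -0.10 (SE 0.17) without control 2. ERN1 had 30.5, 30.6 and 28.8 CPM in the bile acid libraries and 35.6, 19.0 and 42.4 CPM in the control libraries. The bile acid libraries were close to each other, between control 2 and the other controls. The log2 fold change of ERN1 was -0.11 (SE 0.29) with all libraries and -0.37 (SE 0.15) without control 2 (edgeR, unadjusted p = 0.0338, adjusted p = 0.576). With the trend with gene length also removed, it was -0.31 without control 2 (limma, unadjusted p = 0.0700). In that limma fit CRELD2, MANF, HERPUD1, SDF2L1, CALR and SEC61G kept unadjusted p-values of 0.00539 to 0.0290. Their adjusted p-values there were 0.348 to 0.495, and the share of all genes at an unadjusted p under 0.05 was not counted. ATF6 had 105, 99.5 and 101 CPM in the bile acid libraries and 116, 77.3 and 134 CPM in the control libraries, the same arrangement, with log2 fold changes of -0.10 (SE 0.23) and -0.29 (SE 0.13). EIF2AK3 had 51.1, 39.0 and 40.9 CPM in the bile acid libraries and 39.3, 21.8 and 39.3 CPM in the control libraries. Bile acid 2 lay just under controls 1 and 3, and the log2 fold change was 0.38 (SE 0.27), or 0.16 (SE 0.16) without control 2. CREB3L2, an ATF6-like factor of the ER and Golgi membranes, had a log2 fold change of 0.12 (SE 0.36), and WFS1, an ER membrane protein linked to calcium, of 0.14 (SE 0.22).

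Per length, the levels of the ER genes ranged widely. The mean over all 6 libraries was highest for HSPA5, at 403 FPKM, a level above that of 99.8% of tested genes, followed by CANX at 254, CALR at 229, HSP90B1 at 197 and P4HB at 177 FPKM. XBP1 followed at 135 FPKM and the pore subunit SEC61A1 at 121 FPKM. The sensors stood at the other end of the order, with ATF6 at 11.5 FPKM, EIF2AK3 at 6.10 FPKM and ERN1 at 2.47 FPKM, the lowest of the genes detected. For all 35 neighbouring pairs among the 36 detected genes the ranges over libraries overlapped. Such ranges ignore that both genes of a pair were measured in the same libraries. Within each of the 6 libraries HSPA5 was above CANX and P4HB above XBP1, while the order of CANX and CALR changed between libraries. The other pairs were not compared within libraries.

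**Figure D3:**
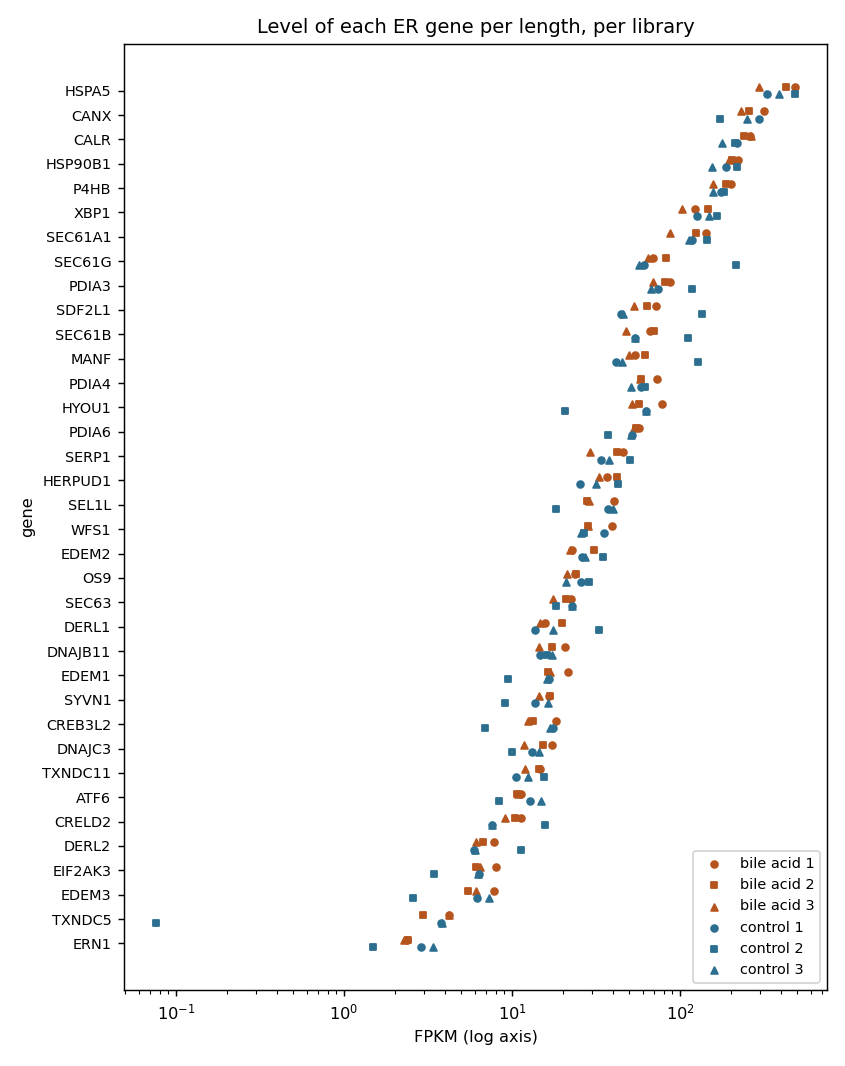
FPKM (x axis, log scale) of the 36 detected ER genes in each of the 3 bile acid and 3 control libraries, ordered by the mean over all libraries, from HSPA5 at 403 FPKM down to ERN1 at 2.47 FPKM. Control 2 (blue squares) lies away from the other points for SEC61G, SDF2L1, MANF, HYOU1 and TXNDC5, and close to them for HSP90B1 and P4HB.

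The ER genes also varied within the bile acid group. Together they took 1.434%, 1.283% and 1.087% of all counts in the bile acid libraries and 1.235%, 1.078% and 1.207% in the control libraries. Bile acid 1 thus had the highest share and bile acid 3 a share below controls 1 and 3. The median of log2 CPM minus the gene's mean was 0.20, 0.07 and -0.12 in the bile acid libraries and -0.07, 0.07 and -0.06 in the control libraries, groups that overlapped. Bile acid 1 was the highest of the 6 libraries for 16 of the 36 genes, against 19.4% of all tested genes. It was the lowest for 0, against 18.4% of all tested genes. Without bile acid 1 the median log2 fold change of the ER genes was -0.06, and without bile acid 3 it was 0.21.
Control 2 was the highest library for another 16 of the 36 and the lowest for 13, while over all genes it was the highest for 36.4% and the lowest for 41.8%.

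**Figure D4:**
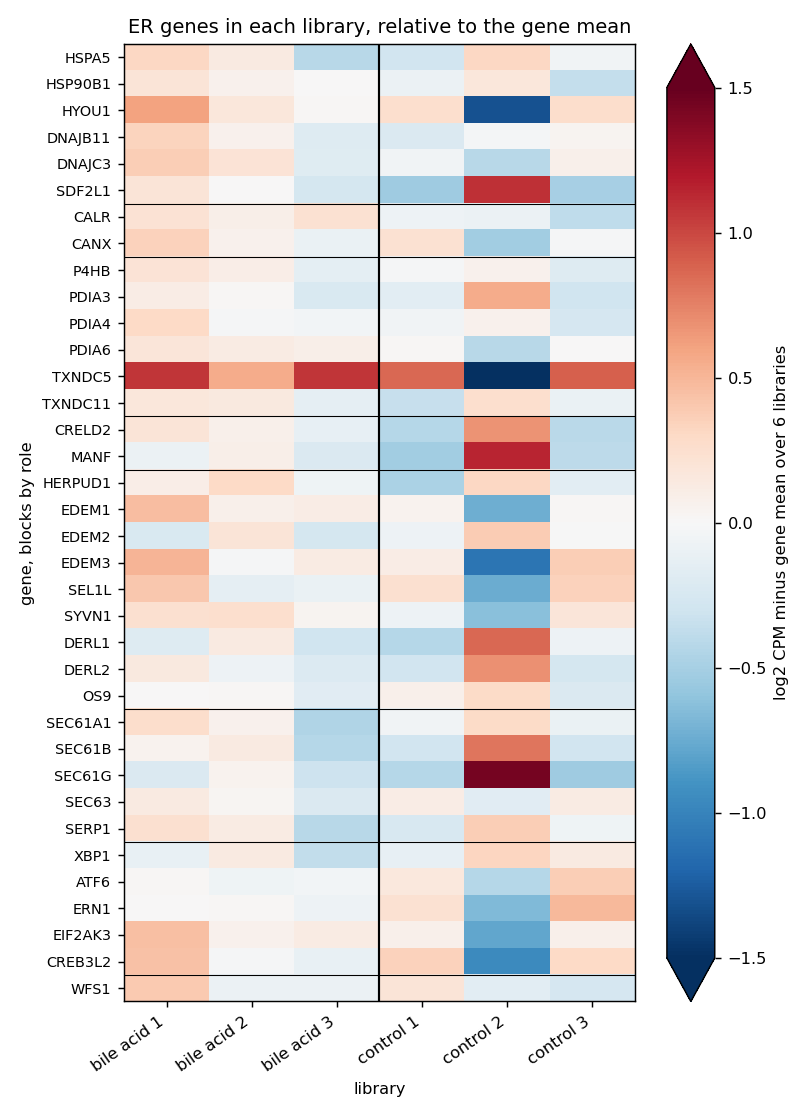
Log2 CPM minus the gene's mean over the 6 libraries (colour) for 36 ER genes (rows, in blocks by role) in 3 bile acid and 3 control libraries (columns). Control 2 holds the strongest colours in both directions, bile acid 1 is above the gene mean for 31 genes and bile acid 3 for 9. The same counts over all genes were not made.

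The deviation of control 2 went with gene length for many of the ER genes. Several short genes were high in it and several long ones low: the log2 difference from the mean of controls 1 and 3 was 1.91 for SEC61G, 1.62 for SDF2L1 and 1.60 for MANF, and -1.57 for HYOU1, -1.34 for EDEM3 and -1.03 for ERN1. Across the 36 genes, which share the same 3 libraries and are not independent, Spearman's rho with exonic length was -0.601 and Pearson's r with log length was -0.472, and over all genes rho was -0.33. Others did not follow length: the difference was 1.12 for DERL1 and 0.96 for DERL2, both longer than 6 kb, 1.10 for CRELD2 and 0.63 for HERPUD1, both longer than 5 kb, and -5.35 for TXNDC5, at 4387 bp. Set against the mean of controls 1 and 3 in the same way, the bile acid libraries 1 to 3 also had negative values of rho over the ER genes, of -0.346, -0.657 and -0.519, where those over all genes were 0.117, -0.318 and -0.0158. With the trend with length removed from every library, the median log2 fold change of the ER genes was 0.07 with all libraries and 0.15 without control 2, with 0 genes called in either. The part of RNA quality or library preparation in these differences was not tested.

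**Figure D5:**
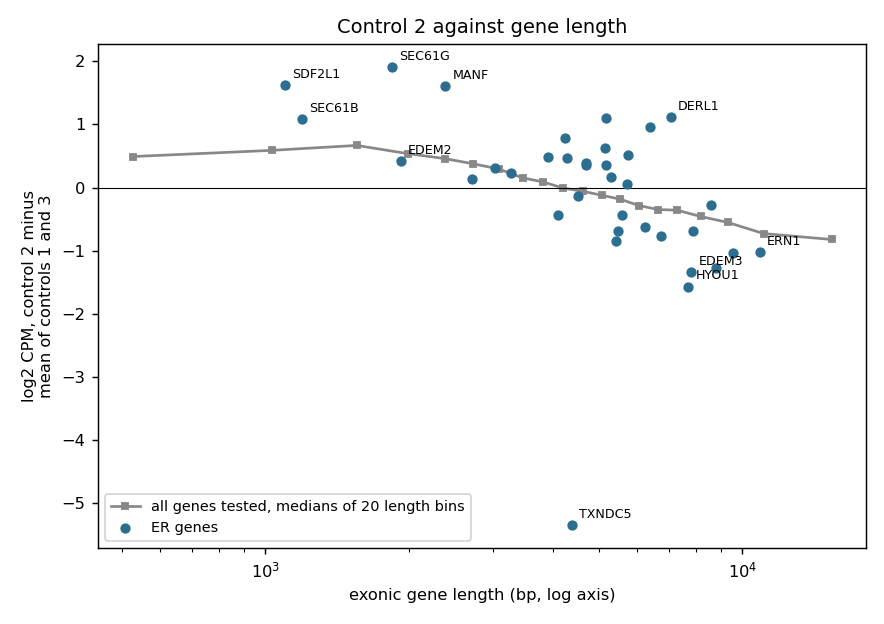
Log2 CPM of control 2 minus the mean of controls 1 and 3 (y axis) against exonic gene length (x axis, log scale), with blue points for 36 ER genes and a grey line for medians of 20 length bins over all tested genes. The bin medians run from above 0 for short genes to below 0 for long ones, and TXNDC5 lies far below the other ER genes.

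Genes with and without a response element in the printed kind of window were set side by side. The 10 genes with ERSE or ERSE-II had a median log2 fold change of 0.10 with all libraries and of 0.26 without control 2, where 9 were positive and 4 had an unadjusted p under 0.05 (CALR, SDF2L1, CRELD2 and HERPUD1). The 24 tested genes with neither had medians of 0.11 and 0.13, with 17 positive without control 2 and 2 higher at that threshold (MANF and SEC61G). XBP1 was the 1 gene with an element that was negative without control 2. The difference between these sets was not tested.

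Further genes of the same pathways were counted from 5 lists that hold none of the 37. In edgeR 0 genes of any list passed the adjusted threshold, and 0 had an unadjusted p under 0.05 with all libraries. The 26 other ER folding factors had a median log2 fold change of 0.00, and 0.05 without control 2. SIL1, a nucleotide exchange factor of BiP, had 59.2, 58.3 and 48.2 CPM in the bile acid libraries and 68.8, 162 and 49.9 CPM in the control libraries. ERP29, a PDI-like chaperone, had 98.4, 178 and 129 CPM in the bile acid libraries and 134, 513 and 136 CPM in the control libraries. Control 2 was the highest library for both, and their log2 fold changes of -0.76 and -0.95 became -0.09 and 0.02 without it.
The 26 other ERAD factors had a median of 0.01, and 0.05 without control 2. MARCH6, a ubiquitin ligase of the ER membrane, had a log2 fold change of 0.40 (SE 0.23), and SVIP, an inhibitor of ERAD, of -0.51 (SE 0.30). The 27 genes of targeting, translocation and signal peptide cleavage had a median of -0.13, and 0.10 without control 2. STT3B, a catalytic subunit of oligosaccharyltransferase, had 239, 175 and 202 CPM in the bile acid libraries and 164, 116 and 167 CPM in the control libraries. Its groups did not overlap, with a log2 fold change of 0.46 (SE 0.22), or 0.32 without control 2 (edgeR, unadjusted p = 0.0622). SRP19, of the signal recognition particle, had -0.78 (SE 0.47), and -0.02 without control 2.
The 21 other regulators of the unfolded protein response had a median of -0.18, and -0.02 without control 2. DDIT3 encodes CHOP, a transcription factor induced downstream of PERK. It had 21.7, 58.0 and 35.8 CPM in the bile acid libraries and 30.7, 173 and 48.3 CPM in the control libraries, with a log2 fold change of -1.12 (SE 0.66), or -0.02 without control 2. PPP1R15B, a phosphatase subunit that reverses the action of PERK, had 119, 73.1 and 91.0 CPM in the bile acid libraries and 72.8, 42.2 and 81.9 CPM in the control libraries, overlapping groups with a log2 fold change of 0.52 (SE 0.30), or 0.30 without control 2. The 19 genes of the COPII coat and ER exit, which carry folded proteins to the Golgi, had a median of 0.19, and 0.09 without control 2, with SEC31A at 0.37 (SE 0.26) and MCFD2 at 0.29 (SE 0.21).
Without control 2, 5 of the 119 genes of these lists (4.2%) had an unadjusted p under 0.05 in edgeR, against 7.98% of all genes, so this count is no result about the lists. The 5 were named after their values were seen. VCP, the ATPase that pulls ERAD substrates out of the membrane, had 267, 242 and 297 CPM in the bile acid libraries and 181 and 196 CPM in controls 1 and 3, with 287 CPM in control 2. Its log2 fold change without control 2 was 0.52 (edgeR, adjusted p = 0.364; DESeq2, adjusted p = 0.0652), and with all libraries it was 0.28. PPIB and SURF4 had 0.43 and 0.32 without control 2, and TMX3 and TMX4 had -0.42 and -0.31.

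The authors' deposited table of their own comparison lists 36 of the ER genes, with 21 positive log2 fold changes, 0 with a p-value under 0.05 and a smallest adjusted p of 0.977. Over all genes that the authors' deposited table lists, 51.7% are positive, 3.56% have a p-value under 0.05 and 0.129% of those with an adjusted p pass 0.05. In the authors' deposited table of gene sets, the term "response to unfolded protein" has 133 genes, a normalized enrichment score of 1.67 and an adjusted p of 0.00195. Its core of 33 genes holds 3 of the ER genes, DNAJC3, EDEM1 and EIF2AK3, and in the authors' deposited table the core of "chaperone-mediated protein folding", with a score of 1.74, holds 0. How many ER genes belong to these terms was not counted. In edgeR the log2 fold changes of DNAJC3, EDEM1 and EIF2AK3 were 0.26, 0.41 and 0.38 with all libraries. Without control 2 they were 0.14, 0.20 and 0.16. The authors' log2 fold changes of the ER genes lay within 0.0486 of those in edgeR with all libraries. No gene set was scored without control 2.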

How the data were processed

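RNA of 3 bile acid and 3 control cultures was sequenced as paired reads. The submitters' processing notes list, without roles, the tools DESeq2, featureCounts and HISAT2 (version 2.0.5) and the build GRCh38. The deposited table holds the authors' raw counts per gene, and the deposited FPKM are the authors' values per length and depth. Coordinates and lengths are those of the deposited table. The deposited normalized counts are a signal of whole reads divided by a factor per library, and 100% came out whole within 0.01. Per the file headers, the authors' comparison gives log2 fold changes, test scores and p-values, and the gene set table gives scores and other values such as set size. No source used here gives strand use in counting. Besides TXNDC5, PDIA6 and SYVN1, other genes overlap 23.2% of the exonic length of DNAJB11 and 18.9% of PDIA3. The overlap is 15.1% for EIF2AK3, 13.5% for OS9 and 11.2% for TXNDC11, so these counts are uncertain too. For the other ER genes it is at most 9.98%. A further 2 value columns were not used.

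Groups came from the labels. The main test was edgeR 4.0.16 (R 4.3.3): TMM factors, filterByExpr, quasi-likelihood test, Benjamini-Hochberg adjustment over all tested genes, threshold 0.05, no covariates. An SE is the log2 fold change divided by the root of F, and CPM are TMM-scaled. Deviations used log2 CPM with a prior count of 2. p-values measure the spread between these cultures only. Alternatives were DESeq2 1.42.0, limma 3.58.1 (voom, FPKM with pseudocounts of 1 and 0.1, length trend removed by lowess), RLE and upper-quartile factors, other filters, recovered reads, a replicate block and leaving out each library. Scripts were tested on simulated data. Values per library were named for 10 genes and for the 5 highest and 5 lowest log2 fold changes, and 2 genes per further list by smallest p. Members, lists, motifs and tests were chosen with earlier results of these data known.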

Additional observations from a re-analysis of the deposited data

How the results depend on the processing

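With 3 libraries a group and 1 control library apart from the rest, the fold changes of single ER genes are imprecise, and the 95% intervals with all libraries all include 0. Over 26 alternatives 0 of the 36 ER genes were called. Of 936 values of single genes 851 kept their sign and 85 did not, and 16 genes kept it throughout. The median log2 fold change of the ER genes ranged from -0.064 to 0.209 when 1 library was left out, with -0.06 without bile acid 1 and 0.21 without bile acid 3, and lay between 0.06 and 0.11 under the other alternatives. DESeq2 called 19 genes in all with every library, and leaving out 1 library gave 0 or 1 in edgeR and 1 to 158 in DESeq2, with 158 without control 2. ER genes whose groups did not overlap numbered 3 to 11 higher and 0 to 2 lower with 1 library left out, against 6.99% to 13.1% of all genes higher and 6.46% to 13.2% lower in the same settings. The sign turned with the length trend removed, with or without the replicate block, for SDF2L1 (0.169), SEL1L (-0.035) and SEC61B (0.045). It turned for HSPA5 on FPKM (-0.00624 and -0.00629), for CRELD2 with upper-quartile factors (-0.00871) and with a minimum of 1 CPM in 3 libraries (-0.00666), and for SERP1 with no filter (0.0068). Leaving out 1 library turned the sign of 20 genes, with these ranges of log2 fold change: HSPA5 -0.13 to 0.22, SDF2L1 -0.52 to 0.52, PDIA3 -0.26 to 0.21, TXNDC11 -0.012 to 0.30, CRELD2 -0.17 to 0.48, MANF -0.64 to 0.40, EDEM3 -0.016 to 0.60, SEL1L -0.21 to 0.26, DERL1 -0.58 to 0.16, DERL2 -0.33 to 0.25, OS9 -0.22 to 0.025, SEC61A1 -0.23 to 0.12, SEC61B -0.42 to 0.23, SEC61G -0.93 to 0.34, SEC63 -0.11 to 0.063, SERP1 -0.16 to 0.17, ATF6 -0.29 to 0.084, ERN1 -0.37 to 0.14, CREB3L2 -0.18 to 0.33, WFS1 -0.030 to 0.29. Nothing in the labels says that replicate numbers pair the cultures, and deviations of same-numbered libraries correlated at 0.307, 0.382 and 0.0979, the last under the 0.1 asked of every pair, while those of other pairs lay between -0.413 and 0.189. Numbers 1 and 2 thus correlated best with their own number and number 3 did not. Deviations from a group mean sum to 0 over its 3 libraries, so these correlations depend on each other. They therefore cannot decide whether the numbers pair the cultures. The replicate block left 0 ER genes and 0 genes in all called, with a median of 0.11 (0.07 with the length trend also removed). Length removal together with leaving out control 2, and CPM scaled by library size alone, were added after seeing the data. The cause of these changes was not tested.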

Other observations

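DNAJB9 was not the only gene at 0 at its place in the genome. It lies on chromosome 7 from 108569568 to 108574850 (GRCh38, plus strand) and overlaps THAP5, on the other strand, which was also at 0 in all 6 libraries. PNPLA8, which overlaps both at its own start, had 47, 51 and 42 counts in the bile acid libraries and 77, 72 and 56 counts in the control libraries. Of 19951 protein-coding genes in all, 2622 (13.1%) were at 0 in every library. DNAJB9 has no row among the 31530 genes of the deposited normalized counts, where the other 36 ER genes are listed.

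The recovered reads of the normalized counts exceeded the count table for each of the 36 detected ER genes, with ratios of 1.009 to 1.302, highest for SYVN1 (1.087 to 1.302) and TXNDC5 (1.132 to 1.286). This excess was not particular to the ER genes. Over all genes the recovered total was also the larger in every library, for example 28906632 against 27789590 in bile acid 1.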
